A study of Drosophila melanogaster with 3 samples.

Results

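Genes that make up the transcription loops of the fly circadian clock, apart from the gene of the profiled factor itself, were examined for binding of Pdp1 in embryos. The 7 members, vri, Clk, cyc, per, tim, cwo and cry, were chosen by name from the 13945 protein-coding genes on the 6 chromosome arms. Each was taken as its Ensembl gene body plus 2000 bp upstream. The assay was chromatin immunoprecipitation with sequencing (ChIP-seq) of a Pdp1-eGFP fusion in 3 biological replicates of whole Drosophila melanogaster embryos, 0 to 24 h old and of both sexes. All 3 replicates came from the strain Pdp1-MiMIC-GFP, in which an inserted eGFP exon tags the endogenous gene, and the fusion protein was precipitated through GFP. They form 1 group, so no conditions could be compared and no test was run. Whether every Pdp1 isoform carries the tag is not given in the sources used here, and peaks from untagged embryos were not analysed here.

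In the fly clock, the bHLH-PAS proteins CLK and CYC bind E-boxes and switch on per, tim, vri, Pdp1 and cwo. PER and TIM then inhibit CLK-CYC, CWO represses through the same E-boxes, and CRY is the blue-light photoreceptor that resets the clock through TIM. In a second loop, studied mainly in adult heads, the bZIP proteins VRI and PDP1 act on Clk in opposite directions, VRI as a repressor and PDP1 as an activator. The gene vri also has roles in embryonic patterning and tracheal development. In whole embryos, weak binding in many cells and strong binding in few cells cannot be told apart.

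The deposited lists held 4622 thresholded peaks, which passed the irreproducible discovery rate (IDR) procedure, 27719 relaxed peaks called on the pooled replicates, and 30000 relaxed peaks in each replicate. Every peak has a summit and a signal value, both as the authors' peak caller gave them. The thresholded peaks were the strongest 4622 of the pooled list by signal, the last of them at 102. The median signal was 43.7 in the pooled list, and 21.3, 15.1 and 15.2 in replicates 1, 2 and 3. Signals are not scaled between lists, so ranks by signal within each list, with 1 the strongest, are given beside them. Read depth is unknown.

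The thresholded summits of the 7 genes numbered 5, of which 3 were in vri, 1 in cwo and 1 in cry. The 201 bases centred on each summit are shown because these are the only thresholded places in the 7 genes. All 5 are on the plus strand of dm6, 5′ to 3′, and the sequence is that of the RefSeq Release 6 genome. A match to any of the sites TTACGTAA, TTATGTAA, CACGTG or TATCGATA would be in capitals, and none of the 5 windows has one.
vri, intron and 206 bp upstream of a start site, chr2L:5299341-5299541: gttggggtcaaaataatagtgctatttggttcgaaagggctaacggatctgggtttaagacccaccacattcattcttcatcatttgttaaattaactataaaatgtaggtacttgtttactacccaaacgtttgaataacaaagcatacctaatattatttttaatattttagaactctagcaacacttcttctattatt
vri, intron, chr2L:5293284-5293484: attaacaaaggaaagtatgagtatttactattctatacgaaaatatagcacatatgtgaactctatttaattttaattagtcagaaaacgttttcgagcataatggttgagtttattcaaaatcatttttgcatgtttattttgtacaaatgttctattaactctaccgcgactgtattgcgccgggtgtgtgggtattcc
vri, intron, chr2L:5297367-5297567: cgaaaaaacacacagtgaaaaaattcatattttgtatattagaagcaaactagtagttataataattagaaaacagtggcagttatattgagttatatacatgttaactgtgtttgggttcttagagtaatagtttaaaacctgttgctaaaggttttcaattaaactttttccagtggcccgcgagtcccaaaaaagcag
cwo, intron, chr3R:10393811-10394011: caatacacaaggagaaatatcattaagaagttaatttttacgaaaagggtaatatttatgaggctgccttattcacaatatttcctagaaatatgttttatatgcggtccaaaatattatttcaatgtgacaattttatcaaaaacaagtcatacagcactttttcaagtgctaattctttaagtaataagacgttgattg
cry, upstream, chr3R:19211765-19211965: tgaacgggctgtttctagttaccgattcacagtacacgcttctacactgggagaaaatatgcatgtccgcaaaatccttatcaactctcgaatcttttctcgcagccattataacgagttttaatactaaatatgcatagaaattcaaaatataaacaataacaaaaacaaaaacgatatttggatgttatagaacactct

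All 5 places were rich in A and T. Within 150 bp of the summit, G and C made up 30.2% of the cwo bases, 33.9%, 34.6% and 36.5% of those at the 3 vri summits, and 35.9% of those at cry. All thresholded summits had a median of 37.5% with quartiles at 34.2% and 41.2%, so cwo and 1 vri summit were below the lower quartile. The other pooled summits had a median of 43.9%.

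A thresholded summit was thus present in 3 of the 7 genes, against 29.8% of all protein-coding genes and 37.5% of the 6056 genes whose regions, like those of the members, were 4169 to 24280 bp long. With 7 genes, a count of 3 is near either share. A relaxed summit of the pooled list was present in 6 of 7, against 72.0% of all genes and 83.8% of those in the same range of length. The members held 28 pooled summits in 87.9 kb, or 3.18 per 10 kb, where all protein-coding regions had 2.54 per 10 kb. The median per gene ran the other way, with 2.40 per 10 kb in the members against 2.71 in all protein-coding genes, and vri and cwo held 12 and 9 of the 28 summits. The gene that had none was Clk.

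**Figure D1:**
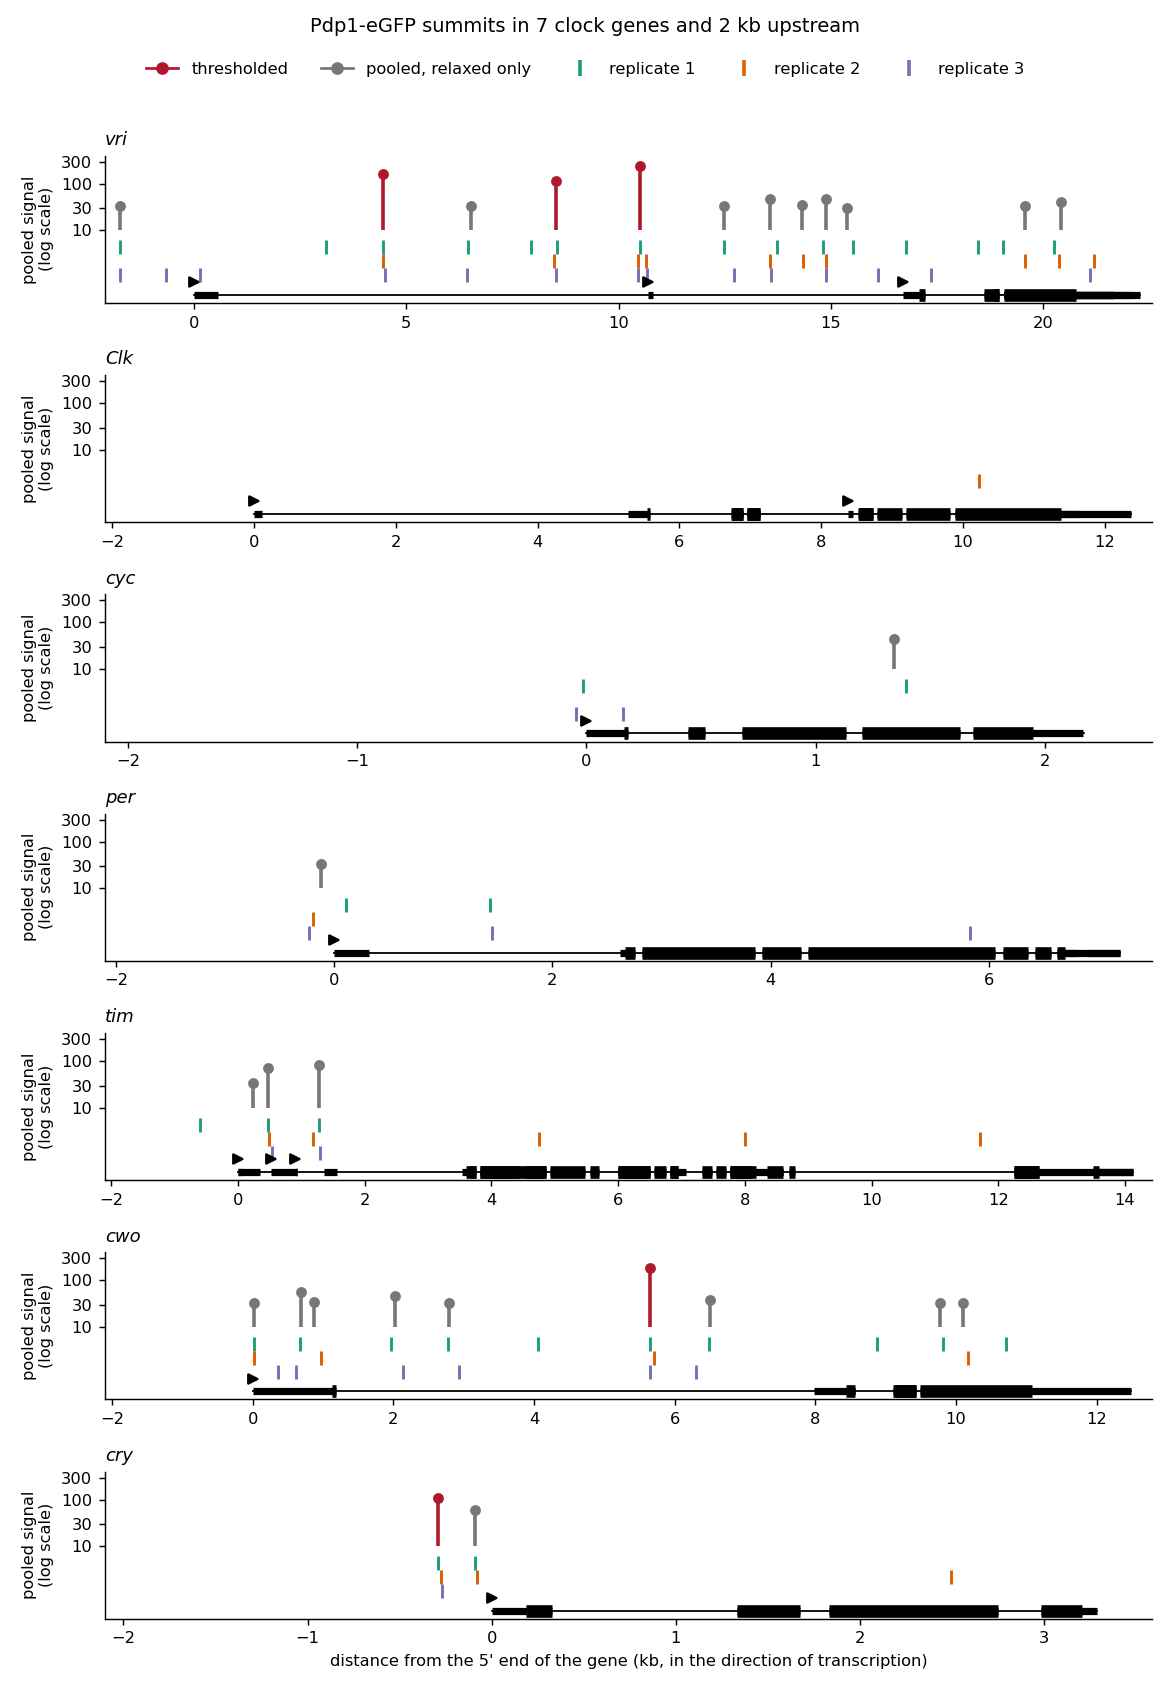
Summits along the 7 genes, with the distance from the 5′ end of each gene in kb on the x axis and the pooled signal on a log scale on the y axis. Stems are pooled summits, red where thresholded and grey where relaxed only; coloured ticks under the value 10 mark summits of the 3 replicate lists and carry no signal; black bars are exons, thick where coding, and triangles are start sites. The 3 red stems of vri lie in its introns, the stem of cwo in its long intron and that of cry before its start site, while Clk has no stem and 1 tick.

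Among the repressors of the loops, vri (FBgn0016076, chr2L:5288944-5311223, plus strand) had the most summits. It has 5 annotated transcripts from 3 start sites, and the most distal start, of transcript vri-RE, opens a long first intron that contains the start of vri-RC. Its strongest peak, chr2L:5299236-5299645, had its summit 206 bp upstream of the vri-RC start. The pooled signal there was 243.1, rank 1385. The replicates gave 89.8, 65.8 and 82.1 in replicates 1, 2 and 3, or 79.2 ± 12.2 (SD, n = 3), at ranks 1496, 1668 and 1130. In each of the 3 replicate lists and in the pooled list, this was the highest of the 5 thresholded member summits.

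The other thresholded vri summits lay deeper in the introns. The summit at chr2L:5293179-5293588 was 4440 bp downstream of the vri-RE start, with a pooled signal of 162.4, rank 2515. Its replicate signals were 69.1, 45.1 and 39.5 (51.2 ± 15.7, SD, n = 3), at ranks 2314, 2697 and 3802, so all 3 replicates had it among their strongest 4622 peaks. The summit at chr2L:5297262-5297671 was 2180 bp upstream of the vri-RC start and had a pooled signal of 117.7, rank 3835. This peak, though not its summit, overlapped the noncoding gene lncRNA:CR45730 (chr2L:5297486-5297928, minus strand). The replicate signals of the summit were 55.6, 19.0 and 43.5 (39.4 ± 18.6, SD, n = 3). Replicate 2 stood apart there, with rank 8728 against 3224 and 3250 in replicates 1 and 3. Of the 9 relaxed vri summits, which had pooled signals from 30.1 to 48.4, only that 1823 bp upstream of the start shared by vri-RA, vri-RD and vri-RF was matched within 100 bp in all 3 replicates, at 20.3, 11.6 and 23.8.

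In its strongest summit and in its number of pooled summits, the region of vri was above the median of regions of its size. Of 447 genes whose region length was within 20% of that of vri, 56.4% had a thresholded summit, and 76.5% had a strongest pooled summit below the 243.1 of vri. The median number of pooled summits in these genes was 6, and 11.4% had as many as the 12 of vri or more.

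The gene cwo (FBgn0259938, chr3R:10388258-10400752, plus strand), which encodes a bHLH-Orange repressor that acts through E-boxes, had its only thresholded summit inside the gene. The peak chr3R:10393706-10394115 lay in an intron, 5653 bp downstream of the only annotated start site, with a pooled signal of 189.4, rank 2022. The replicates gave 74.9, 47.9 and 63.2 (62.0 ± 13.5, SD, n = 3), at ranks 2036, 2502 and 1813. This was the second of the 5 member summits in every replicate list, below the vri-RC summit of the same list. Close to the cwo start, 15 bp downstream, the pooled list had only a relaxed summit of 33.2, rank 21984, found in replicates 1 and 2 and not in replicate 3. A stronger relaxed summit, 56.1 and rank 9614, lay 680 bp downstream in the 5′ UTR. In all, cwo had 9 pooled summits, and of the 697 genes within 20% of its region length, 6.60% had as many or more. Only the thresholded one of the 9 was matched within 100 bp in all 3 replicates. Replicates 1, 2 and 3 had 10, 4 and 6 summits in the region of cwo.

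The light input gene cry (FBgn0025680, chr3R:19212154-19215442, plus strand) had the weakest of the 5 thresholded summits by pooled signal. The noncoding gene lncRNA:CR46393 starts at the same base as cry, on the same strand. The peak chr3R:19211660-19212069 had its summit 289 bp upstream of this shared start. Its pooled signal was 109.8 against the lowest thresholded value of 102, and its rank 4183. The signals were 44.7, 36.4 and 23.7 (34.9 ± 10.6, SD, n = 3), at ranks 4409, 3465 and 7738, so replicate 3 did not have it among its strongest 4622 peaks. In each replicate list this was below the vri-RC and cwo summits. In replicate 2 the cry summit was above the vri summit 2180 bp upstream of the vri-RC start, which had 19.0 there. A relaxed summit 88 bp upstream of the start, with a pooled signal of 59.9, belongs to a peak that shares 209 bp with the thresholded one, so the pair may not be separate places. A summit lay within 100 bp of it in replicates 1 and 2, at 20.6 and 24.3, and replicate 3 had none. Replicate 2 alone also had a summit of 16.1 in coding sequence, 2496 bp downstream of the cry start.

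**Figure D2:**
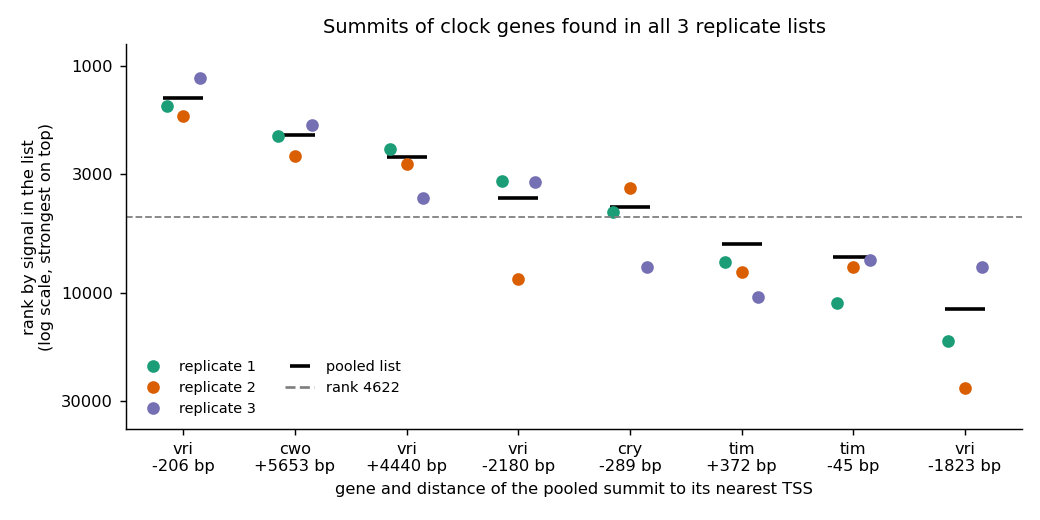
Ranks of the 8 pooled member summits that had a summit within 100 bp in all 3 replicate lists, with gene and distance to the nearest start site on the x axis and rank on a reversed log scale on the y axis. Coloured points are the replicates, black dashes the pooled list, which is shorter than the replicate lists, and the dashed line is rank 4622; the summits of vri-RC, cwo and the vri site at 4440 bp stay above the line in every replicate, and both tim summits stay below it in every replicate.

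The light-sensitive partner of PER, tim (FBgn0014396, chr2L:3493986-3508119, minus strand), came closest to the threshold among the other members. It had 3 relaxed pooled summits, all near its 3 start sites. The strongest lay in an intron 372 bp downstream of the start used by 6 of its 10 transcripts, with a pooled signal of 81.1, rank 6085. Its signals were 32.2, 19.7 and 19.3 in replicates 1, 2 and 3 (23.7 ± 7.32, SD, n = 3), at ranks 7290, 8119 and 10435. The next lay 45 bp upstream of the tim-RO start, with 72.3, rank 6963, and signals of 25.1, 20.2 and 25.0 (23.5 ± 2.83, SD, n = 3). All 3 replicates thus held both places, in each case outside their strongest 4622 peaks. A weaker summit of 34.8 was 231 bp from that summit, in an overlapping peak, and was matched in no replicate. Replicate 2 alone had weak summits 3855, 7105 and 10810 bp downstream of the nearest tim start, with 12.2, 13.6 and 12.4. Replicate 1 alone had a summit of 17.2, 608 bp upstream. Of 623 genes within 20% of the length, 47.8% had a thresholded summit and 43.8% had a strongest pooled summit below that of tim.

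The target gene per (FBgn0003068, chrX:2685580-2692780, plus strand), which encodes the PAS-domain repressor of CLK-CYC, had 1 relaxed pooled summit. It lay 118 bp upstream of the start with a signal of 33.1, rank 22061. Within 100 bp it was matched only in replicate 2, by a summit of 10.9 at rank 29891 of 30000. Replicates 1 and 3 had summits nearby, 105 bp downstream of the start (23.3, rank 12680) and 229 bp upstream (19.9, rank 10004). Each replicate list thus placed a weak summit within 500 bp of the per start. Those of replicates 2 and 3, 197 and 229 bp upstream, lay within 100 bp of each other, and that of replicate 1 lay apart. Replicates 1 and 3 also shared a weak intronic place, 1429 and 1445 bp downstream, with 14.7 and 10.2. Replicate 3 alone had a summit of 9.6 in coding sequence, 5828 bp downstream. Of 1166 genes within 20% of the length of per, only 13.3% had a strongest pooled summit below its own or no summit. The strongest peak of the whole pooled list, with a signal of 3424 and a summit 41 bp from a start of Ugalt, lay 11113 bp beyond the downstream end of per.

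The genes of the activators CLK and CYC had no thresholded summit. In cyc (FBgn0023094, chr3L:19813770-19815938, minus strand), the only pooled summit was relaxed, with 45.3 at rank 13048. It lay in coding sequence, 1342 bp downstream of the start and 1257 bp from a start of Cyp305a1. A summit within 100 bp of it was found in replicate 1 alone, with 18.2. At the cyc start, replicate 1 had a summit 17 bp upstream (24.3) and replicate 3 had summits 44 bp upstream (9.9) and 159 bp downstream (18.6), but the pooled list had none there and replicate 2 had none in the whole region. A strong thresholded summit, with a pooled signal of 360.8 at rank 682, lay 2120 bp upstream of cyc, 120 bp outside the region. It was 91 bp from a start of the neighbouring gene Fibp, which separates it from cyc.

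Clk (FBgn0023076, chr3L:7763233-7775603, minus strand) had no summit in the thresholded list, the pooled list, replicate 1 or replicate 3. Its only summit was in replicate 2, in coding sequence 1859 bp downstream of the nearer of its 2 start sites, with a signal of 12.0 at rank 24701 of 30000. The nearest thresholded summits were 73520 bp upstream of the region, with a signal of 311.5 and 4425 bp from a start of Pdp1 itself, and 44183 bp downstream, near Mcad. Of 695 genes within 20% of the region length of Clk, 45 (6.47%) had no pooled summit. Clk was singled out here as the only member without one. Over the members as a set, 6 of 7 had a pooled summit, near the 83.8% of genes in the members' range of length. Counting only genes that also lacked a summit in replicates 1 and 3, a condition chosen after the values of Clk were seen, the share was 2.88%. Binding below the lowest signal of a list, 28.8 in the pooled list, is not shown by it.

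**Figure D3:**
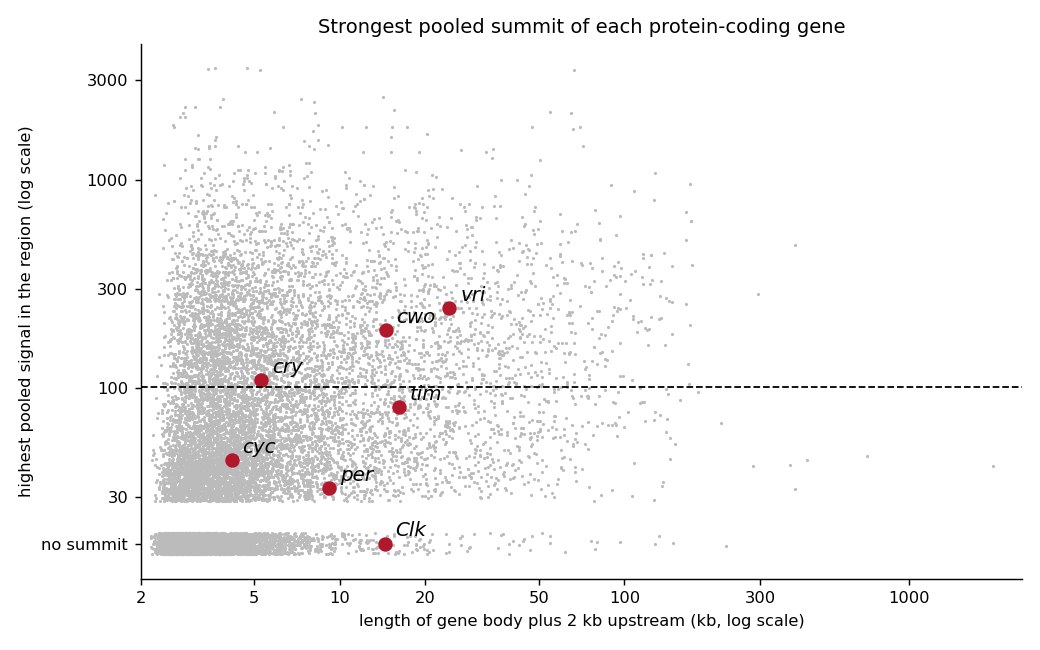
Each grey point is a protein-coding gene, with the length of its body plus 2 kb in kb on a log x axis and the signal of its strongest pooled summit on a log y axis; genes with no summit are spread by small random shifts in a band at the bottom. Red points are the 7 clock genes and the dashed line is the lowest thresholded signal, 102: vri, cwo and cry lie above it, tim, cyc and per below it, and Clk in the band.

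Ordered by their strongest pooled summit, the genes were vri (243.1), cwo (189.4), cry (109.8), tim (81.1), cyc (45.3) and per (33.1), with Clk lacking one. Since the lists are not scaled to each other, neighbours in this order were compared within each list. The best vri summit was above the best cwo summit, cwo above cry, and cry above the tim summit of 81.1, in each of the 3 replicates. In replicate 3 the other tim summit, with 25.0, was above the 23.7 of cry. The pooled summits of cyc and per were each matched in 1 replicate, so their places in the order rest on the pooled list. In the replicate lists, 6 of 7 members had a summit in each case, where Clk lacked one in replicates 1 and 3 and cyc in replicate 2. The share of all protein-coding genes with a summit was 73.7%, 64.9% and 71.0% in replicates 1, 2 and 3.

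Of the 28 pooled summits in the members, 15 were in introns, 5 in coding sequence, 4 in 5′ UTRs and 4 upstream of the gene. A summit within 100 bp was found in all 3 replicates for 8 of the 28, in 2 replicates for 6, in 1 for 12 and in none for 2. The share matched in all 3 was 28.6% in the members and 21.5% over all pooled summits. The 8 summits fell in 4 genes, vri, cwo, cry and tim, or 4 of 7 members against 31.7% of all protein-coding genes. That last share is not matched for region length. Within 500 bp of any of their starts, 2 of 7 members (vri and cry) had a thresholded summit, against 20.7% of genes, and 5 of 7 had a pooled summit, against 51.1%.

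Sites that the clock factors are known to bind, and beside them TATCGATA, were then located in the regions of the 7 genes, on both strands. TTACGTAA and TTATGTAA, the forms of the PAR bZIP site searched here, occurred 2 and 15 times, or 0.227 and 1.71 per 10 kb, against 0.112 and 0.687 per 10 kb over all protein-coding regions. The regions of vri and Clk held 1 TTACGTAA each. TTATGTAA occurred 6 times in vri, 4 times in Clk, 4 times in tim and 1 time in per. Neither form occurred in the regions of cwo and cry, which had a thresholded summit, or in that of cyc. The E-box CACGTG occurred 27 times, 3.07 per 10 kb against 1.28, with 10 in cwo and 8 in per. TATCGATA, the site of the promoter factor DREF, did not occur in them. Of these 44 matches, 0 shared bases with a match of another motif. None of the 4 motifs was in the 300 bases around the 5′ end of any member (250 before and 50 after), where 0.452%, 2.16%, 4.24% and 9.37% of all protein-coding genes had TTACGTAA, TTATGTAA, CACGTG and TATCGATA.

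No thresholded member summit had any of the 4 motifs within 150 bp. Over all thresholded summits the shares with a motif in such a window were 0.519% for TTACGTAA, 2.66% for TTATGTAA, 3.96% for CACGTG and 5.88% for TATCGATA, so 5 summits are too few to read anything from their absence. Of the matches in the members, 1 of 2 TTACGTAA, 2 of 15 TTATGTAA and 3 of 27 CACGTG lay within 150 bp of a relaxed pooled summit, and such windows covered 9.31% of the bases.

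The following matches are shown because they lie beside a relaxed summit or, in Clk and per, upstream of a gene that factors of these sites are known to control. Whether the Clk and per matches shown take part in that control was not tested. In these genes only the upstream match nearest to the 5′ end is shown. Farther upstream, per had E-boxes 1401 and 1479 bp before its start. Clk had TTATGTAA 1374 and 1504 bp before its distal start. Each sequence is read along the strand of its gene, with the match in capitals.
vri TTACGTAA, chr2L:5304398-5304427: tgaataggaaaTTACGTAAtatctcccgac
vri TTATGTAA, chr2L:5287117-5287146: ctgtttccaccTTATGTAAgtttgggcctg
tim TTATGTAA (reverse strand of the gene), chr2L:3506914-3506943: gaagttgcattTTACATAAgccaacaacga
vri E-box, chr2L:5303341-5303368: acattccacgaCACGTGaccgctccgcc
vri E-box, chr2L:5303926-5303953: attggtccggaCACGTGaatcgggcgac
vri E-box, chr2L:5303944-5303971: atcgggcgactCACGTGgatatcgcgca
per E-box, chrX:2685039-2685066: aagccgccgctCACGTGgcgaactgcgt
Clk TTACGTAA, chr3L:7776582-7776611: gtgctgaaatgTTACGTAAgcatctaataa

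The tim match lay in the intron, 83 bp from the pooled summit of 81.1 and 92, 6 and 109 bp from the nearest summits of replicates 1, 2 and 3. At vri, the TTACGTAA was 89 bp from a relaxed summit of 30.1 that no replicate matched, and the upstream TTATGTAA, 1812 bp before the vri-RE start, was 65 bp from a relaxed summit of 32.9 found in replicates 1 and 3. The first vri E-box shown was 99 bp from a relaxed summit of 35.9 that was matched only in replicate 2. The pair that follows lay 1710 and 1692 bp upstream of the start shared by vri-RA, vri-RD and vri-RF, and 113 and 131 bp from the relaxed summit of 48.4 that all 3 replicates held.

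The sites of Clk and per lay away from summits. The Clk match shown, 994 bp upstream of its distal start, was 6431 bp from the nearest pooled summit, and the 4 TTATGTAA matches of Clk were 5921 to 10328 bp from one. The per E-box shown, 527 bp upstream of the start, was 409 bp from the pooled summit and 632, 330 and 298 bp from the nearest summits of replicates 1, 2 and 3. The 10 E-boxes of cwo were 174 to 1968 bp from a pooled summit, and the 3 nearest to its thresholded summit were 487, 550 and 670 bp away.

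**Figure D4:**
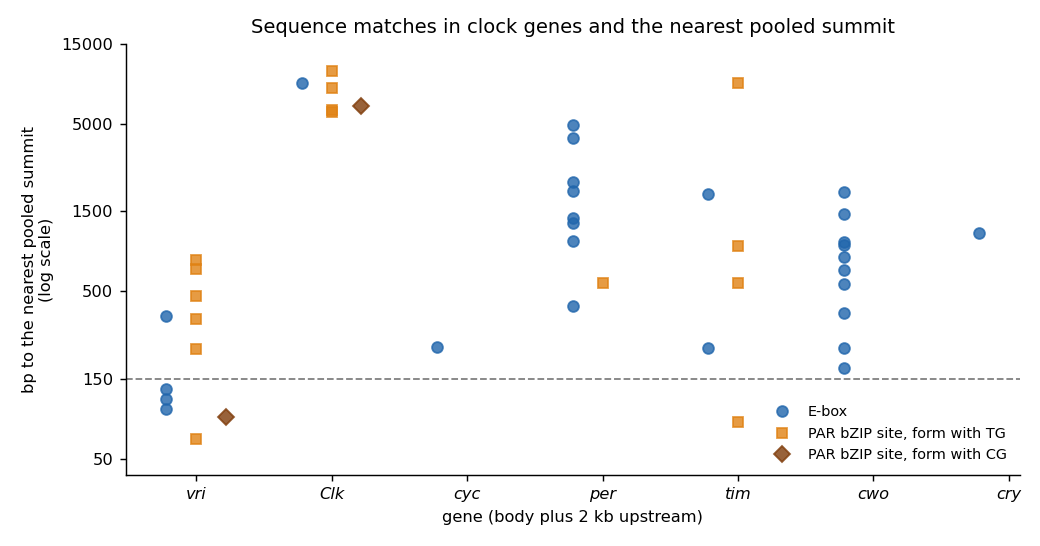
Distance in bp, on a log y axis, from each E-box and PAR bZIP site in the 7 genes to the nearest pooled summit, by gene on the x axis. Symbols tell the site forms apart and the dashed line is 150 bp: points under it are found only in vri and tim, and all points of Clk lie above 5000 bp.

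Other genes of the clock pathway, a list of 28 with Pdp1, kinases, phosphatases, ubiquitin ligases, neuropeptides and regulators of Clk or per, were counted in the same way. A thresholded summit was present in 18 of 28 (64.3%), against 29.8% of all protein-coding genes. Of genes with regions of 4169 to 24280 bp, 37.5% had one. Within 500 bp of a start, 15 of the 28 had a thresholded summit, against 20.7% of all protein-coding genes. The list was chosen with earlier results known. Its median region was 10544 bp and it holds some very long genes, such as Eip75B with 115744 bp. No share given here was matched to its lengths, and no difference from the 7 loop genes was tested. Pdp1 itself had 4 thresholded and 25 pooled summits. All 28 had at least 1 pooled summit, against 72.0% of all protein-coding genes. Pdf, which encodes the clock neuropeptide, had only a relaxed one of 31.4.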

How the data were processed

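Peak lists of 3 biological replicates of Pdp1-eGFP embryos were used, in dm6 coordinates. Per the file listings deposited with the samples, each replicate list was called against a control, a further list on the pooled replicates, and the thresholded list was derived from these by the IDR procedure. The sources used here give neither the aligner nor the peak caller, nor any version. Column 7, the signal, is the value of the authors' peak caller, not scaled between lists. Neither the −log10 of the q-value deposited beside it nor the dm3 lists were used. Chromatin was sheared to 200 to 800 bp, per the labels.

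Summits were the start plus the deposited offset, given 1-based. Genes were those of Ensembl release 115, and all 7 members had the same start and end in RefSeq Release 6. No peak passed the end of an arm. Summits of different lists were matched within 100 bp. Scripts ran in Python 3.11.15 with NumPy 2.4.6 and figures in matplotlib 3.10.9. Assignment, matching and motif search were checked on simulated data. All 7 members were named, with some of the neighbouring genes whose starts lie nearest to a summit. The members and lists were chosen with earlier results of these data known. The replicates are separate biological samples per the labels. Because the lists are not scaled to each other, part of an SD may be scale.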

Additional observations from a re-analysis of the deposited data

How the results depend on the processing

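The 5 thresholded summits became 2 among the upper 2311 thresholded peaks by signal, namely those near vri-RC and in cwo, and 3 when support within 100 bp among the strongest 4622 peaks of all 3 replicates was asked for. Asking it of 2 replicates at a time left 3 to 4. The number of members with a thresholded summit went from 3 to 2 for gene bodies alone, where cry was lost, and to 4 with 5000 bp upstream, where cyc gained the summit near Fibp. Within 200 bp of a start, 0 of 7 members had a thresholded summit, instead of 2. The 28 pooled summits became 8 when matched in all 3 whole replicate lists and 9 to 11 when matched in 2. Measured from the 5′ end of the gene only, the vri summits upstream of the vri-RC start lay 10497 and 8523 bp downstream. With matching within 50 bp, the cwo summit and the vri summit at 4440 bp were matched in only 2 replicates. Read depth is unknown, so which relaxed summits depth limits cannot be said.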

Other observations

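Neighbouring pooled summits in the long introns of vri were nearly evenly spaced, an observation made after the values were seen. From the summit 4440 bp downstream of the vri-RE start to the relaxed summit 1786 bp downstream of the vri-RC start, the 4 gaps were 2076, 2007, 1974 and 1992 bp. The median gap between neighbouring pooled summits over all arms was 2149 bp. The relaxed summit of 33.6 lay between the thresholded summits at 4440 bp downstream of vri-RE and 2180 bp upstream of vri-RC, and that of 33.2 was the last of the run. Replicate 2 held neither, and the summit of 33.2 was matched within 100 bp in replicate 1 alone. Each replicate list also had a further summit inside the run. These lay 2771, 48 and 36 bp upstream of the vri-RC start in replicates 1, 2 and 3. The even run is thus that of the pooled list and of no single replicate. The gaps elsewhere in vri ranged from 497 to 6187 bp.

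Some of the pooled peaks in the members overlapped, with summits 199 and 330 bp apart in cwo, 201 bp apart at cry and 231 bp apart at tim. Of all 27713 gaps between neighbouring pooled summits, 8.38% were of 250 bp or less.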
